A study of Mus musculus with 9 samples.

Results

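The 10 genes described here encode receptors for 4 families of neuropeptides: *Vipr1*, *Vipr2* and *Adcyap1r1* for VIP and PACAP, *Calcr* and *Calcrl* for calcitonin and CGRP, *Sstr1* and *Sstr2* for somatostatin, and *Oprm1*, *Oprd1* and *Oprk1* for opioid peptides. They were chosen by name from the 21457 features of a single-nucleus matrix of mouse spinal cholinergic neurons, and all 10 were present. Nuclei tagged with the nuclear envelope protein Sun1 fused to GFP were sorted from spinal cords of 8-week-old mice carrying 1 copy each of a driver labelled Chat-iCre (the Chat-IRES-Cre line) and a reporter labelled SUN-SfGFP (CAG-Sun1/sfGFP), so every library shared this genotype and there was no other genotype or treatment. The 12 mice were used in 3 pools of 4, and the cord of each pool was cut into a cervical, a thoracic and a lumbar/sacral piece, which gave 9 libraries. Replicate 1 pooled 2 males and 2 females, replicate 2 pooled 4 males and replicate 3 pooled 4 females, so pool and sex cannot be told apart. Because the Cre recombinase acts permanently, a nucleus was tagged if its cell had expressed *Chat* at any time. The matrix held 16042 nuclei that the authors had sorted into skeletal motor neurons (5054 nuclei; clusters S1 or Type 3, S2 or alpha, and S3 or gamma), visceral motor neurons (5613 nuclei; V1 to V10) and cholinergic interneurons (5375 nuclei; I1 to I8).

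VIP and PACAP receptors (VPAC1, VPAC2 and PAC1, encoded by *Vipr1*, *Vipr2* and *Adcyap1r1*) couple mainly to the stimulatory G protein and raise cyclic AMP. The product of *Calcrl* binds CGRP when it is paired with the accessory protein RAMP1, and adrenomedullin when it is paired with RAMP2 or RAMP3, whereas *Calcr* encodes the calcitonin receptor. Somatostatin receptors and the mu (*Oprm1*), delta (*Oprd1*) and kappa (*Oprk1*) opioid receptors couple to inhibitory G proteins, lower cyclic AMP and open GIRK potassium channels. In the spinal cord the opioid receptors are best known as targets of analgesic drugs.

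The deposited values were counts corrected for depth by the authors. The values of all nuclei that shared a library and a cluster or class were added up, and each sum was scaled to a total of 1000000 (CPM). Values are the mean ± SD over libraries, and fold changes are differences of log2(CPM + 5) with their standard error (SE), tested with limma. A gene was called at a Benjamini-Hochberg adjusted p under 0.05 over all genes tested. The transcripts are nuclear and were counted at their 3′ ends over introns as well as exons, so levels are compared between groups of nuclei and never between genes.

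Start regions of 3 of the receptors, *Oprd1*, *Sstr2* and *Vipr2*, are shown because the regional, visceral and skeletal patterns below turn on these genes. Each run is the 250 bases before the annotated start, 5′ to 3′ on the strand of the gene, from RefSeq on GRCm38.p6 (*Oprd1* chr4:132144487-132144736, minus strand; *Sstr2* chr11:113619077-113619326, plus strand; *Vipr2* chr12:116077476-116077725, plus strand). Capitals mark the cyclic AMP response element TGACGTCA and the GC box GGGCGG, searched on both strands.
Oprd1: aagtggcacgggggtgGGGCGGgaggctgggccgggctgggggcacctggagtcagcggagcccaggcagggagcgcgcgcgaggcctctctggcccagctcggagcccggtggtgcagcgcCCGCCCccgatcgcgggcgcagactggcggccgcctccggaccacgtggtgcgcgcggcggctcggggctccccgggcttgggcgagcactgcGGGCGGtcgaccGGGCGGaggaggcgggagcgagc
Sstr2: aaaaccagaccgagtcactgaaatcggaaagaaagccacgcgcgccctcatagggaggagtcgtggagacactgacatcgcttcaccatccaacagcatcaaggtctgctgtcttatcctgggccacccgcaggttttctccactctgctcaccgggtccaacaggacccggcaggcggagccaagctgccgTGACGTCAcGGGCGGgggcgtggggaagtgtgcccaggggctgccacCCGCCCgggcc
Vipr2: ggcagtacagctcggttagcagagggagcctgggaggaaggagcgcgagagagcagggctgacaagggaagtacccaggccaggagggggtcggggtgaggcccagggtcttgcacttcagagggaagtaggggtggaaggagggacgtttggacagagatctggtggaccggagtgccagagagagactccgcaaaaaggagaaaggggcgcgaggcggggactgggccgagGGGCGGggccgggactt

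RefSeq start regions were matched for 8 of the 10 receptors, *Sstr1* and *Oprk1* being named only. The response element was found in the *Sstr2* window and in none of the other 7 receptors, against 1.55% of the 32851 windows of this length. A GC box was found for 7 of the 8 receptors, the exception being *Oprm1*, against 32.7% of all windows. The 8 receptors had 11 windows, and a receptor was counted if any of its windows held a box, so the units differ. A *Calcr* window and every *Oprm1* window held none. The *Oprd1* window held 4 GC boxes, the *Sstr2* window 2 and the *Vipr2* window 1. These matches describe letters in a window and were not tied to any expression value.

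Median corrected counts per nucleus ranged from 4712 to 16127 over the libraries. The class markers followed the labels: *Chat*, which makes acetylcholine, was at 152 to 327 CPM in every library of every class, *Tns1* was at 252 CPM or more in skeletal and at most 37.5 CPM in the other classes, *Fbn2* was at 322 CPM or more in visceral neurons, and *Pax2* was at 160 CPM or more in interneurons. The libraries labelled cervical replicate 2 and thoracic replicate 2 went against their region labels. *Hoxa9*, a gene of thoracic and more caudal levels, was at 9.0 CPM in skeletal neurons of the library labelled cervical replicate 2 against 0.1 and 0.0 CPM in the other cervical libraries, and at 0.6 CPM in the library labelled thoracic replicate 2 against 11.9 and 15.8 CPM. The same held in the other 2 classes, and *Hoxd11*, a caudal gene, was above 0 in skeletal neurons of the lumbar/sacral libraries only. The labels were kept, and regional results are given with and without these 2 libraries. The S2 sum of the library labelled cervical replicate 2 (71 nuclei) also stood apart, with *Zeb2* at 133 CPM against 0 to 9.35 in the other S2 sums and *Prph* at 26.5 against 141 to 301 CPM. Oligodendrocyte markers were detected at 36.5 to 92.5 CPM and astrocyte markers at 17.4 to 73.4 CPM summed over 5 genes each in the classes, while microglial markers were at 21.9 to 148 CPM and endothelial markers at 2.94 to 42.1 CPM over 4 genes each, and 33 cell barcodes were shared between libraries.

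Detection of the 10 receptors ranged widely. *Oprm1* was seen in 21.6% of nuclei, *Adcyap1r1* in 21.5%, *Oprk1* in 9.39%, *Vipr2* in 1123 nuclei, *Sstr2* in 3.72%, *Oprd1* in 3.29%, *Calcrl* in 2.58% and *Sstr1* in 2.46%. *Vipr1* was seen in 0.318% of nuclei, with 51 corrected counts in all, and *Calcr* in 17 nuclei with 20 counts. These shares follow depth and transcript length as well as expression, so they are not an order of abundance. *Vipr1* was highest in I7 at 3.20 ± 3.61 CPM (n = 6 libraries) and *Calcr* was at or below 0.411 CPM in every cluster, and neither passed the filter of 10 CPM in 3 sums for any class or skeletal type.

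**Figure D1:**
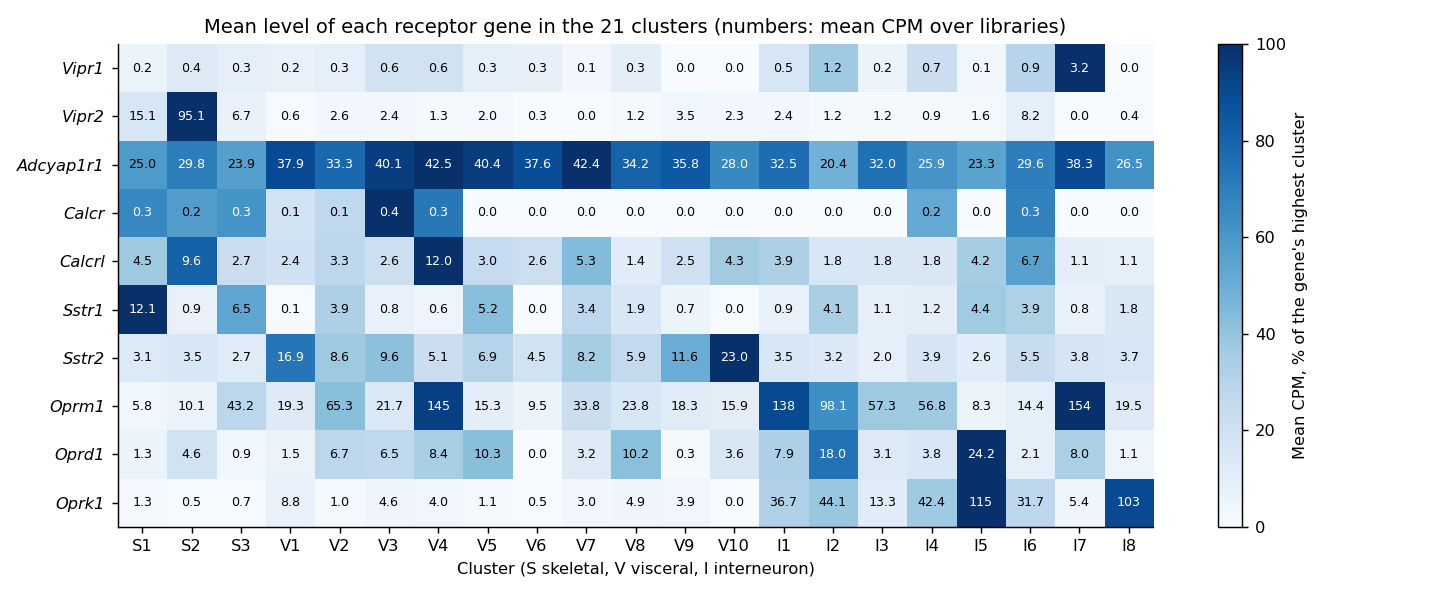
Mean level of each receptor gene (rows) in the 21 clusters (columns), as a percentage of that gene's own highest cluster mean of CPM over libraries. *Vipr2* peaks in S2 and *Oprk1* in I5 and I8, whereas *Adcyap1r1* is above 10 CPM in all 21 clusters.

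In the class fit 7 of the 10 receptors passed the filter of 10 CPM in 3 sums, and each class was compared with the mean of the other 2 within the same libraries. In skeletal neurons 2 were higher and 5 lower, against 66.1% of 11292 genes called. In visceral neurons 2 were higher and 3 lower, against 62.8%, and in interneurons 3 were higher and 3 lower, against 50.5%. The classes and clusters had been drawn by the authors from the same nuclei and genes, and a large part of all genes was called. *Vipr2* and *Sstr1* passed the filter only through skeletal sums, *Sstr2* only through 3 visceral sums and *Oprk1* only through interneuron sums, the classes in which each was high, so the counts are no support. With no filter the same number of calls, 18, was made over the 3 contrasts. These contrasts describe the size of a difference and are not independent evidence of it. *Calcrl* was not tested between classes, with means of 4.72, 3.99 and 3.15 CPM in skeletal, visceral and interneuron sums.

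*Vipr2*, the VPAC2 receptor, was higher in skeletal motor neurons than in the other classes. Its sums ranged from 16.9 to 58.0 CPM with a median of 26.5 in skeletal neurons, from 0.513 to 2.90 with a median of 1.06 in visceral neurons, and from 0.835 to 4.196 with a median of 1.99 in interneurons. The lowest skeletal library was above the highest library of either other class. The skeletal level was 2.35 (SE 0.14) higher on the log2 scale than the mean of the others (adjusted p = 4.87e-12), and *Vipr2* was seen in 19.4% of skeletal nuclei (95% Wilson interval 18.3 to 20.5%) against 1.09% and 1.51%. After each nucleus was thinned to 4600 counts the skeletal mean was 32.0 CPM.

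Within skeletal neurons *Vipr2* was concentrated in S2, the alpha motor neurons that drive force-producing muscle fibres. Its S2 levels were 127, 27.5 and 144 CPM in the libraries labelled cervical, 126, 86.1 and 96.8 in those labelled thoracic, and 97.3, 47.7 and 104 CPM in lumbar/sacral replicates 1 to 3. The lowest value was that of the library labelled cervical replicate 2, and the mean was 95.1 ± 37.6 CPM (n = 9) with it and 104 ± 29.7 CPM (n = 8) without it. In S1, the Type 3 neurons, *Vipr2* ranged from 11.8 to 24.5 CPM around a median of 13.6, and in S3, the gamma neurons that supply muscle spindles, from 2.63 to 11.3 CPM around a median of 5.95. S2 exceeded S1, and S1 exceeded S3, in 9 of 9 libraries. At least 1 count was seen in 55.8% of S2 nuclei (53.1 to 58.5%), 10.1% of S1 nuclei and 4.91% of S3 nuclei, at median totals of 7494, 7413 and 7323 counts.

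A total of 5 receptors passed the filter in the fit of the 3 skeletal types. Between S2 and S3, 2 were higher and 2 lower, where 31.1% of 11465 genes were called. Between S1 and S2, 1 was higher and 1 lower with 25.4% called, and between S1 and S3, 2 were higher and 1 lower with 19.8% called. *Vipr2* was 3.01 (SE 0.22) higher in S2 than in S3 (adjusted p = 2.53e-11) and 2.21 (SE 0.22) lower in S1 than in S2 (adjusted p = 1.54e-08). The smaller difference between S1 and S3, 0.80 (SE 0.22; adjusted p = 0.00904), lost its call on thinned nuclei (0.193) and without replicate 1 (0.169) or replicate 3 (0.0694).

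Outside skeletal neurons *Vipr2* was highest in the interneuron cluster I6, at 8.18 ± 6.94 CPM, and was at 0 in all 9 V7 sums (0 of 557 nuclei, which allows a share of up to 0.539%). The I6 level differed by region, as described below. *Vipr2* lies at chr12:116077726-116146261 on the plus strand (GRCm38, GENCODE vM21), and 52.4% of it is overlapped on the other strand by *Gm20658*, an antisense gene with 524 corrected counts. Whether the counting used strand was not given in the sources used here, so reads from the shared part could belong to either gene. *Gm20658* was also the gene whose cluster pattern was most like that of *Vipr2* (Pearson r = 0.98 of mean log2(CPM + 5) over 21 clusters, among 14464 genes), followed by *Cyp2d22* (0.96) and *Gm29685* (0.95).

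**Figure D2:**
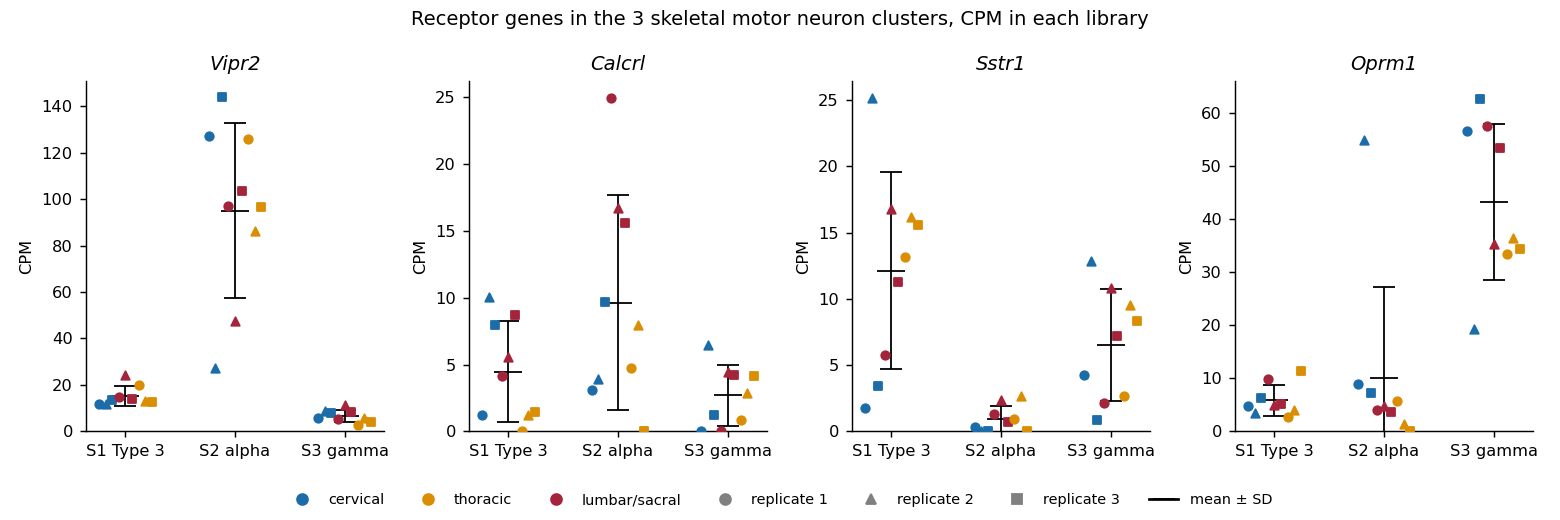
Levels (CPM) of *Vipr2*, *Calcrl*, *Sstr1* and *Oprm1* in the skeletal types S1, S2 and S3. Each point is 1 library, coloured by labelled region with the marker giving the replicate, and bars are the mean ± SD of 9 libraries. *Vipr2* is highest in S2 (mean 95.1), *Sstr1* in S1 (12.1) and *Oprm1* in S3 (43.2), and the raised *Oprm1* point in S2 (55.0) is the library labelled cervical replicate 2.

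*Adcyap1r1*, the PACAP-selective PAC1 receptor, was present throughout. Its cluster means ran from 42.5 ± 13.3 CPM in V4 to 20.4 ± 8.05 CPM in I2, V4 exceeded I2 in 9 of 9 libraries, and no neighbours in that order differed by more than 1 SD of their paired difference. Visceral sums were at 25.0 to 48.7 CPM (median 39.9), interneuron sums at 19.0 to 34.7 (median 29.0) and skeletal sums at 13.8 to 38.2 (median 25.5), so the classes overlapped. The difference was seen within libraries: visceral neurons were 0.43 (SE 0.05) higher than the mean of the others (adjusted p = 1.26e-07) and skeletal neurons 0.31 (SE 0.05) lower (6.97e-06), while interneurons differed by -0.11 (SE 0.05; 0.0594). The skeletal types were at 25.0 (S1), 29.8 (S2) and 23.9 CPM (S3) and none of the 3 contrasts was called. *Stk33*, *Stox1* and *Efcab1* had the most similar cluster patterns, each with r = 0.84.

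*Calcrl*, the ligand-binding part of the CGRP and adrenomedullin receptors, was sparse. It was highest in V4 (11.95 ± 15.2 CPM) and S2 (9.63 ± 8.02 CPM), with the other clusters at 1.11 to 6.67 CPM. S2 was 0.79 (SE 0.23) higher than S3 (2.69 ± 2.28 CPM; adjusted p = 0.0109), a call lost on thinned nuclei (0.0589) and without replicate 1 (0.233). *Calcrl* passed the filter through 3 S2 sums and 1 S1 sum, and its adjusted p was 0.0185 with no filter. The S2 values were 25.0, 16.7 and 15.6 CPM in the lumbar/sacral libraries and 0 to 9.67 CPM in the others, so the labelled regions did not overlap. That difference of 1.34 had an unadjusted p of 0.00486 in limma but an adjusted p of 0.975 over the genes tested in S2 and was not called. *Calcrl* entered this regional fit of S2 only through the 3 lumbar/sacral sums, so its being tested depended on the difference. Endothelial markers, from a cell type that also uses *Calcrl*, were at 4.83 to 80.9 CPM in S2 sums (median 20.02) and 4.11 to 21.9 CPM in S3 sums (median 15.6), and their part was not tested. In V4 *Calcrl* was at 9.45, 39.9 and 36.6 CPM in the lumbar/sacral libraries and 0 to 7.34 CPM elsewhere, and it did not pass the filter for a test there. *Trmo* (r = 0.78), *Gm12718* (0.77) and *A930012L18Rik* (0.76) were closest to it in cluster pattern.

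*Ramp1*, the partner that turns the *Calcrl* product into a CGRP receptor, was measured in the same nuclei. It was at 19.4 CPM in skeletal neurons against 4.35 CPM in the mean of the others (difference 1.47, SE 0.08; adjusted p = 9.63e-13) and was 1.51 (SE 0.08) lower in interneurons (1.09 CPM; 1.34e-12). Among the skeletal types *Ramp1* was highest in S3 at 27.7 CPM, against 15.97 in S2 and 12.02 in S1. S2 was 0.73 (SE 0.19) lower than S3 in *Ramp1* (adjusted p = 0.00432), the opposite direction to *Calcrl*.

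*Sstr1*, a somatostatin receptor, was higher in skeletal neurons (6.82 ± 4.23 CPM, range 1.37 to 11.99) than in visceral neurons (2.03 ± 1.45) and interneurons (2.15 ± 1.60). The skeletal difference was 0.67 (SE 0.10; adjusted p = 4.04e-06, and 2.50e-06 with no filter), and the 4 sums at 10 CPM or more were all skeletal. Within skeletal neurons S1 was highest at 12.1 ± 7.46 CPM (range 1.80 to 25.2), S3 followed at 6.52 ± 4.25 CPM (0.823 to 12.9) and S2 was at 0.929 ± 1.01 CPM (0 to 2.65). S1 was 1.41 (SE 0.19) higher than S2 (adjusted p = 1.52e-06) and S2 was 0.88 (SE 0.19) lower than S3 (5.00e-04). *Sstr1* entered this type fit only through S1 and S3 sums, the types in which it was high, so its being tested depended on these differences. The difference of 0.53 (SE 0.19) between S1 and S3 was called (0.0463) but not once any replicate was left out. Only 7 of 1285 S2 nuclei had a count, against 121 of 1528 S1 nuclei and 107 of 2241 S3 nuclei. *Sstr1* lies at chr12:58211772-58214444, plus strand, and *Gm35507* (r = 0.80), *Lrrc38* (0.78) and *Vps39* (0.77) were most like it.

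*Sstr2*, the other somatostatin receptor of the list, had its highest class mean in visceral neurons, though the ranges of the classes overlapped. The mean of the interneuron cluster I6 (5.54 CPM) was above those of V4 (5.11) and V6 (4.48). The visceral sums of *Sstr2* ranged from 2.72 to 15.8 CPM (median 9.62), skeletal sums from 1.02 to 5.67 (median 2.40) and interneuron sums from 1.39 to 6.32 (median 3.96). Visceral neurons were 0.71 (SE 0.10) higher than the mean of the others (adjusted p = 2.25e-06, and 1.98e-06 with no filter), the 3 sums at 10 CPM or more being visceral, and the other 2 classes were 0.39 and 0.32 (both SE 0.10) lower (0.00158 and 0.00972). Among clusters V10 was highest at 23.0 ± 12.1 CPM (n = 7; 33 of 189 nuclei, 17.5%), then V1 at 16.9 ± 9.78 CPM (n = 9; 93 of 798 nuclei, 11.7%) and V9 at 11.6 ± 11.7 CPM (n = 6). V10 and V1 did not differ beyond their spread. The lowest cluster was I3 at 2.05 ± 2.88 CPM, where 8 of 756 nuclei (1.06%) had a count. *Cd109* and *Smoc2* (both r = 0.89) and *Gm46123* (0.82) had the most similar cluster patterns. The gene, at chr11:113619342-113626028 on the plus strand, lies wholly within the span of *Slc39a11* on the other strand (5431 corrected counts), so its counts are uncertain if reads were not assigned by strand.

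The 3 opioid receptors were all higher in interneurons than in the mean of the other classes. *Oprk1*, the dynorphin-preferring kappa receptor, ranged from 30.3 to 59.1 CPM in interneurons (median 47.8), from 0.995 to 5.89 in visceral neurons (median 3.21) and from 0 to 2.34 in skeletal neurons (median 0.922). The interneuron difference was 2.85 (SE 0.10; adjusted p = 1.10e-15). At least 1 count was seen in 24.5% of interneurons (23.3 to 25.6%), 2.76% of visceral nuclei and 0.712% of skeletal nuclei. *Oprm1*, the mu receptor, ranged from 55.6 to 98.8 CPM in interneurons (median 73.0), from 24.9 to 63.4 in visceral neurons (median 35.8) and from 15.6 to 32.0 in skeletal neurons (median 23.6). It was 1.11 (SE 0.11) higher in interneurons (2.78e-08) and 1.01 (SE 0.11) lower in skeletal neurons (6.17e-08), and its visceral difference of -0.10 (SE 0.11) was not called (0.445). *Oprd1*, the enkephalin-preferring delta receptor, was at 6.26 to 12.2 CPM in interneurons (median 9.50), 0.277 to 15.3 in visceral neurons (median 2.69) and 1.02 to 2.86 in skeletal neurons (median 1.84). It was 0.81 (SE 0.18) higher in interneurons (7.32e-04) and 0.68 (SE 0.18) lower in skeletal neurons (0.00219), and the visceral libraries were divided by region. In lumbar/sacral replicates 1 to 3 the visceral sums (12.9, 15.3 and 12.4 CPM) were above the interneuron sums (6.26, 10.5 and 7.69 CPM). Interneurons were above visceral neurons in every other library.

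**Figure D3:**
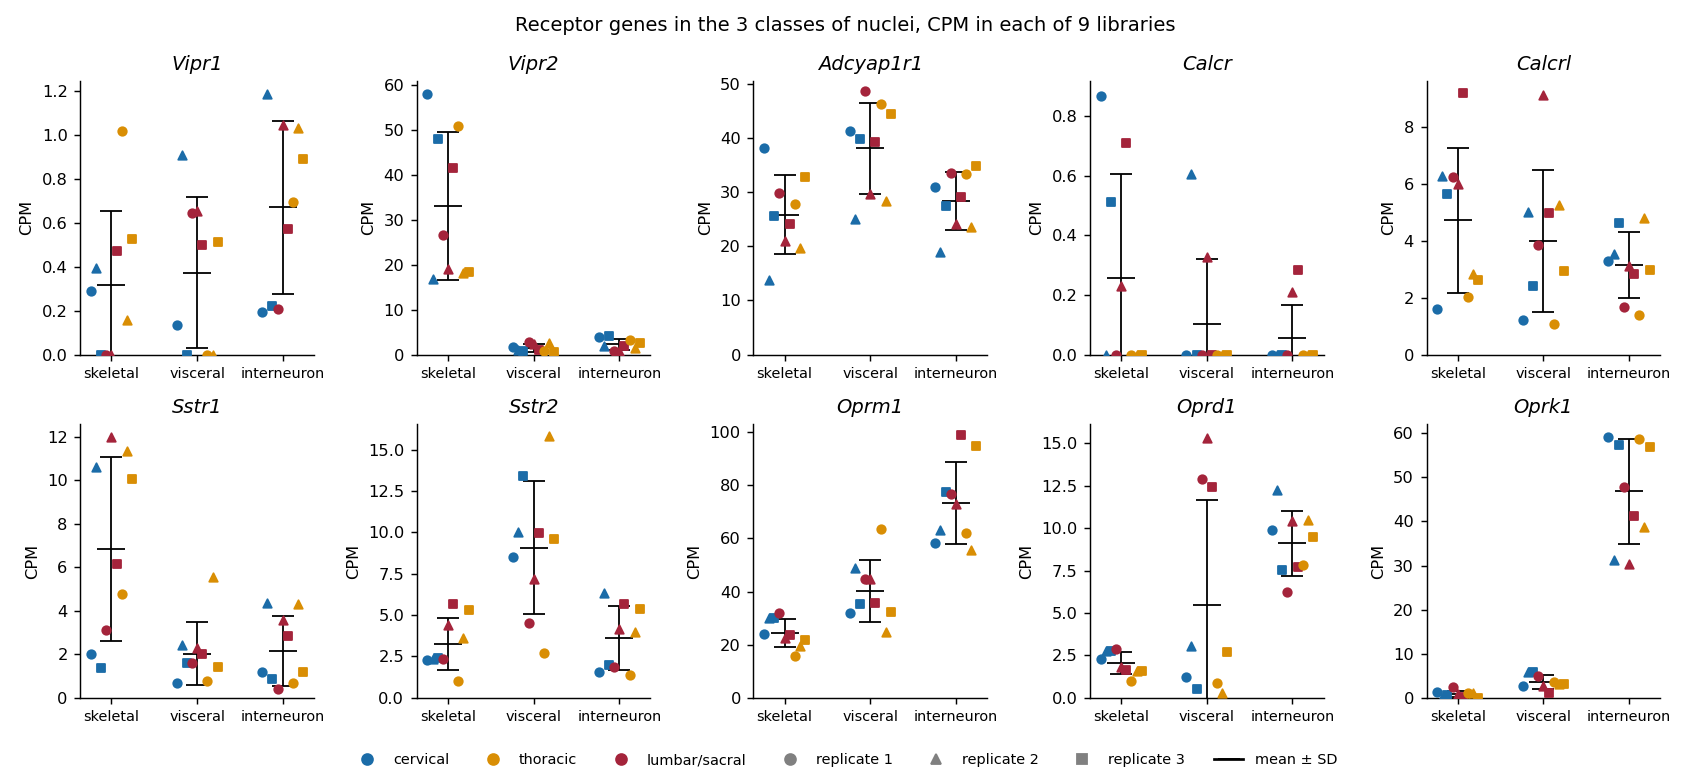
Levels (CPM) of the 10 receptor genes in skeletal, visceral and interneuron sums. Each point is 1 of 9 libraries, coloured by labelled region with the marker giving the replicate, and bars are the mean ± SD. *Vipr2* stands out in skeletal neurons (mean 33.1) and *Oprk1* in interneurons (46.8), and *Sstr2* has its highest mean in visceral neurons (9.08), with overlapping ranges.

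Within the interneurons the mu and kappa receptors were highest in different clusters. *Oprm1* was at 154 ± 14.5 CPM in I7 (n = 6; 65.6% of nuclei), 138 ± 40.2 in I1 (50.5%), 98.1 ± 28.8 in I2, 57.3 ± 21.9 in I3 and 56.8 ± 14.9 in I4, but at 19.5 ± 12.6 in I8, 14.4 ± 17.2 in I6 and 8.30 ± 5.94 CPM in I5. *Oprk1* was at 115 ± 27.03 CPM in I5 (55.5%) and 103 ± 46.9 in I8 (n = 8; 49.2%), then at 44.1 ± 17.8 in I2, 42.4 ± 9.05 in I4, 36.7 ± 6.09 in I1, 31.7 ± 13.8 in I6, 13.3 ± 4.88 in I3 and 5.39 ± 7.38 CPM in I7. The lowest I5 library for *Oprk1*, at 74.2 CPM, was above the highest I2 library, at 70.1 CPM. I5 and I8 did not differ beyond their spread for *Oprk1*, nor did I7 and V4, or V4 and I1, for *Oprm1*. I7 and I1 are not neighbours in that order, and I7 was above I1 for *Oprm1* in 5 of the 6 libraries holding both. I8 exceeded I2 beyond the spread for *Oprk1* (1.02, SD 0.70, in 7 of 8 libraries), and I1 exceeded I2 for *Oprm1* (0.48, SD 0.39, in 8 of 9). *Oprd1* was highest in I5 at 24.2 ± 6.54 CPM (17.8% of nuclei) and I2 at 18.0 ± 8.59 (10.6%), which did not differ beyond their spread, and was at 1.15 ± 1.73 CPM in I8.

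Detection in the same nuclei was counted as a description, since sparse counts miss most transcripts. In I5, *Oprk1* was seen in 61 of the 104 nuclei with *Oprd1* (58.7%) against 55.5% of all I5 nuclei. In I2, *Oprm1* was seen in 62.7% of the 83 nuclei with *Oprd1* against 44.0% of all. In I1, *Oprm1* was seen in 52.6% of the 302 nuclei with *Oprk1* against 50.5% of all. Some pairs lay below the cluster share: *Oprm1* was seen in 7.41% of I8 nuclei with *Oprk1* against 12.5% of all, and in 3.70% of I5 nuclei with *Oprk1* against 5.14%, and *Oprk1* in 14.7% of I1 nuclei with *Oprd1* against 19.9%. These are examples, and more of the pairs counted lay above the cluster share than below it, some with few nuclei. Nuclei of all libraries were pooled for these shares, although depth differed between libraries, and the part of depth was not tested.

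**Figure D4:**
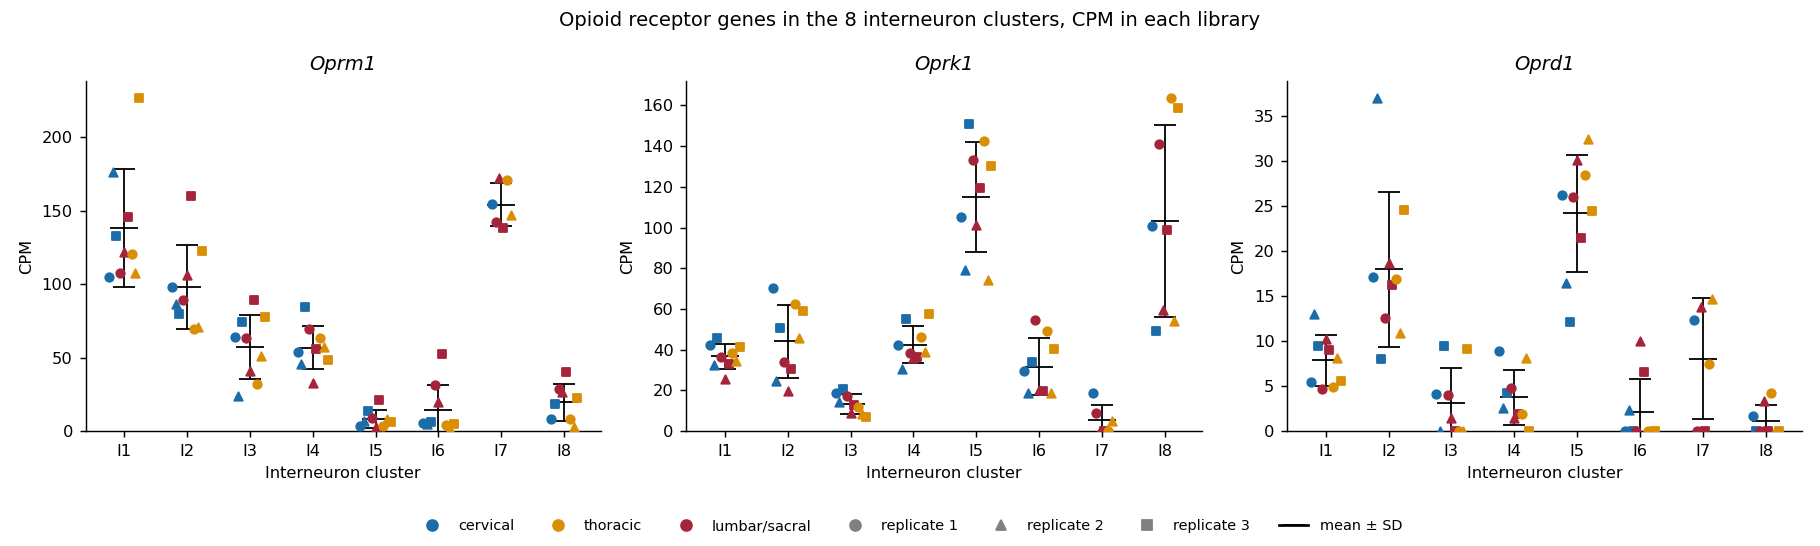
Levels (CPM) of *Oprm1*, *Oprk1* and *Oprd1* in the interneuron clusters I1 to I8. Each point is 1 library, coloured by labelled region with the marker giving the replicate, and bars are the mean ± SD of 6 to 9 libraries. *Oprk1* and *Oprd1* peak in I5 (means 115 and 24.2), where *Oprm1* is at 8.30.

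*Oprm1* was also present in visceral and skeletal clusters. V4 was at 145 ± 58.2 CPM (85.7 to 248; 58.5% of nuclei), V2 at 65.3 ± 39.2 and V7 at 33.8 ± 18.8 CPM. Of the skeletal types S3 was highest, at 43.2 ± 14.6 CPM (19.3 to 62.5), with S1 at 5.83 ± 2.94 CPM (2.63 to 11.3). S2 was at 10.1 ± 17.1 CPM, but its value was 55.0 in the library labelled cervical replicate 2, whose S2 sum stood apart, and 4.45 ± 2.95 CPM (0 to 9.01; n = 8) in the rest. *Oprm1* was 2.05 (SE 0.31) lower in S2 than in S3 (adjusted p = 7.02e-06) and 2.13 (SE 0.31) lower in S1 than in S3 (5.36e-06), and S1 and S2 differed by -0.08 (SE 0.31; 0.889). Every S3 sum was above the 10 CPM of the filter, so *Oprm1* entered this type fit largely through S3, the type in which it was high. *Oprk1* was at 8.80 ± 6.46 CPM in V1 and under 5 CPM in each of the other visceral and skeletal clusters, and at 0 in V10 (0 of 189 nuclei, which allows a share of up to 1.59%). *Oprd1* was at 0 in all 8 V6 sums (0 of 582 nuclei, up to 0.515%) and was at 4.62 ± 1.61 CPM in S2 against 1.32 in S1 and 0.944 in S3, where it was not tested.

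The cluster pattern of *Oprm1* was most like those of *Ipcef1* (r = 0.89), *Gad2* (0.84), which makes GABA, and *St8sia2* (0.81). *Oprm1*, at chr10:6758506-7038198 on the plus strand, is overlapped over 54.5% of its length by *Ipcef1* on the other strand (1144 corrected counts), so the likeness to *Ipcef1* is uncertain without strand. *Oprk1*, at chr1:5588466-5606131 on the plus strand, was most like *Mpped2* (0.87), with *Las1l* at 0.86. *Oprd1*, at chr4:132110726-132144486 on the minus strand, was most like *Sytl5* (0.79), *Kcnh5* (0.74) and *Fibin* (0.73). Among the receptors themselves the highest correlations were *Vipr2* with *Calcrl* (0.60) and *Oprd1* with *Oprk1* (0.43). All of these are over 21 clusters drawn from the same libraries.

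The regional comparison asked whether a receptor differed along the cord within a class, with 3 libraries per labelled region. In each class 4 receptors could be tested, and 1 was called between lumbar/sacral and the other libraries: *Oprd1* in visceral neurons. The other 11 differences lay between -0.29 (SE 0.22, *Oprk1* in interneurons) and 0.27 (SE 0.18, *Oprm1* in interneurons), and the class-high *Vipr2* of skeletal neurons differed by -0.14 (SE 0.41). S2 held 395 of 979 skeletal nuclei in the library labelled cervical replicate 1 (*Vipr2* at 58.0 CPM) and 79 of 686 in thoracic replicate 2 (18.1 CPM). In cervical replicate 2, however, it held 71 of 166 (16.9 CPM). The part of the S2 share in skeletal *Vipr2* levels was not tested. Visceral *Oprd1* was at 12.9, 15.3 and 12.4 CPM in lumbar/sacral replicates 1 to 3, at 1.22, 3.03 and 0.535 CPM in the libraries labelled cervical and at 0.869, 0.277 and 2.69 CPM in those labelled thoracic. Every lumbar/sacral library was above every other library. The difference was 1.54 (SE 0.22; adjusted p = 0.00424), where 4.27% of 10031 genes were called in visceral neurons, 0.01% of 9999 in skeletal neurons and 0.051% of 9805 in interneurons. At least 1 count was seen in 99 of 1500 lumbar/sacral visceral nuclei (6.60%; 5.45 to 7.97%) against 50 of 4113 others (1.22%; 0.923 to 1.60%). The adjusted p was 0.00958 without the libraries labelled cervical and thoracic replicate 2 and 0.00491 with the replicate number as a block. *Oprd1* passed the filter only through the 3 lumbar/sacral sums, the group in which it was high, so that its being tested depended on the difference, and its adjusted p was 0.00115 over all genes with no filter. Without any 1 replicate it was no longer tested. With the filter at 2 sums its adjusted p was then 0.116 to 0.147, at differences of 1.49 to 1.61.

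The lumbar/sacral difference of *Oprd1* was itself larger in visceral neurons than in the other classes, in a fit of all 3. It exceeded that in skeletal neurons by 1.52 (SE 0.17; adjusted p = 3.37e-06; 9.73% of 11292 genes called) and that in interneurons by 1.70 (SE 0.17; 7.37e-07; 8.27% called). The interneuron and skeletal differences were not distinguished (-0.18, adjusted p = 0.684; 0.7% called). Visceral clusters were unevenly spread along the cord, V8 making up 30.9% of lumbar/sacral visceral nuclei and 0.214% and 0% of those labelled cervical and thoracic. V1 and V6, with *Oprd1* at 1.54 and 0 CPM, made up 4.87% and 2% of lumbar/sacral visceral nuclei, against 18.8% and 14.2% of those labelled cervical and 16.7% and 12.8% of those labelled thoracic. Without V8 the lumbar/sacral visceral values of *Oprd1* were 17.4, 18.3 and 8.80 CPM against 0.277 to 3.04 CPM in the other libraries, so the regions were still separate, but the part of the other clusters' shares in the class difference was not tested.

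The same comparison inside single clusters covered 17 clusters and 52 pairs of a receptor and a cluster, and 3 pairs were called, where 1.14% of all 169819 gene and cluster pairs were. The p-values were adjusted over the genes of each cluster separately, and not across clusters. *Oprd1* in V5 was at 18.5, 35.8 and 17.6 CPM in the lumbar/sacral libraries and at 0 in the 4 other libraries with enough nuclei. It was seen in 30 of 206 lumbar/sacral V5 nuclei (14.6%; 10.4 to 20.03%) and 0 of 406 others, which allows a share of up to 0.739%. Against the level that 3 counts over those 4 libraries would give, the lumbar/sacral mean was at least 26.2-fold higher. *Oprd1* entered the V5 test only through those 3 lumbar/sacral sums. The adjusted p was 0.0271, and 0.0149 with no filter, and the call was lost on thinned nuclei (0.0674) and with a pseudocount of 1 (0.202). At a filter of 2 sums it was 0.0370, 0.0943 or 0.504 without replicate 1, 2 or 3. In V2 *Oprd1* was at 16.1, 20.04 and 11.999 CPM against 0 to 6.32 CPM, a difference of 1.61 that was not called (0.0662). There too *Oprd1* entered the test only through the 3 lumbar/sacral sums. In V4 it was at 40.9, 29.3 and 0 CPM against 0 to 1.81 CPM and was not tested.

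*Oprm1* was called in opposite directions in a visceral and an interneuron cluster. In V3 it was at 7.37, 2.03 and 3.39 CPM in the lumbar/sacral libraries, at 24.8, 31.4 and 51.5 CPM in those labelled cervical and at 32.4, 23.1 and 19.5 CPM in those labelled thoracic. It was 1.92 (SE 0.31) lower in lumbar/sacral V3 (adjusted p = 0.00751, and 0.00907 with no filter), having passed the filter only through the other libraries, with counts in 5 of 225 nuclei (2.22%) against 89 of 497 (17.9%). That call was lost without replicate 1, 2 or 3 (0.0584, 0.0728 and 0.212), but at a filter of 2 sums it was kept without replicate 1 (0.0481) and lost without replicate 2 or 3 (0.0841 and 0.184). In I6 *Oprm1* was at 31.1, 20.1 and 52.4 CPM in the lumbar/sacral libraries and 1.33 to 5.99 CPM in the others. It passed the filter only through the 3 lumbar/sacral sums. It was 2.02 (SE 0.36) higher (0.0198, and 0.0294 with no filter), with counts in 17 of 171 nuclei (9.94%) against 14 of 373 (3.75%). In neither cluster did the groups overlap. The I6 call rested on 32 lumbar/sacral counts and was lost on thinned nuclei (0.0535), with a pseudocount of 1 (0.0553) and without the 2 libraries whose *Hox* genes went against their labels (0.0501). With the filter at 2 sums, leaving out replicate 1, 2 or 3 gave an adjusted p of 0.282, 0.0861 or 0.480 in I6.

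*Vipr2* went the other way in the same I6 cluster. No count was seen in the 171 lumbar/sacral I6 nuclei, which allows a share of up to 1.75%, whereas the libraries labelled cervical were at 15.6, 9.40 and 15.97 CPM and those labelled thoracic at 13.8, 5.33 and 13.5 CPM (33 of 373 nuclei, 8.85%). The mean of these 6 libraries was at least 3.92-fold higher than the level of 3 counts over the lumbar/sacral libraries. *Vipr2* passed the filter there only through the libraries labelled cervical and thoracic. The adjusted p was 0.0511 in the unblocked fit and 0.0298 with the replicate block. The lowest shares of *Oprm1* in any cluster were 3.09% in V6 (18 of 582 nuclei, median total 8600) and 3.86% in S1 (59 of 1528 nuclei, median total 7413), close to its 3.75% in I6 outside lumbar/sacral cord (median total of I6 7489), and *Vipr2* was seen in 0 of 557 nuclei of V7. The part of free RNA in these low shares was not tested.

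Between the libraries labelled thoracic and cervical 0 receptors were called in any class by limma, where 0% of genes were called in skeletal, visceral and interneuron sums (0 of 9999, 10031 and 9805). At an unadjusted p under 0.05 there was 1 receptor, *Oprm1* in skeletal neurons (-0.46, adjusted p = 0.719), beside 607, 160 and 189 genes in the 3 classes. The 2 libraries whose *Hox* genes went against their labels are 1 of each region, so the contrast sets labels against each other that these libraries do not follow.

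**Figure D5:**
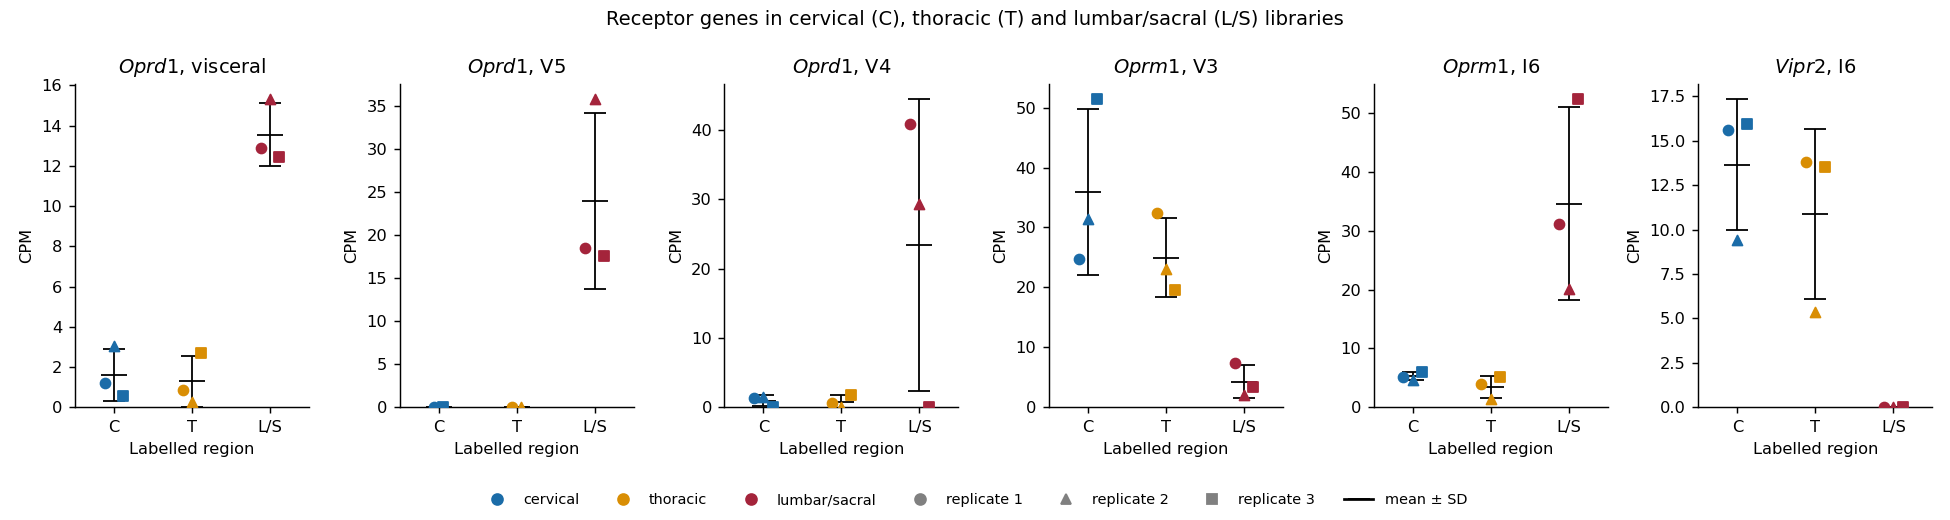
Levels (CPM) of *Oprd1* in visceral neurons, V5 and V4, of *Oprm1* in V3 and I6, and of *Vipr2* in I6, by labelled region. Each point is 1 library with the marker giving the replicate, and bars are the mean ± SD. Visceral *Oprd1* is at 12.4 to 15.3 in lumbar/sacral libraries and at most 3.03 elsewhere.

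The peptides that act on these receptors were partly measured in the same nuclei. Of 13 ligand genes 11 were in the matrix and 5 were tested. In visceral lumbar/sacral sums 2 were higher and 1 lower of the 3 tested there, where 4.27% of 10031 genes were called. The median difference of these 3 genes was 3.72, against 0.06 over all genes tested. *Sst*, with a mean of 3.66 CPM in the other libraries, could pass the filter only with its lumbar/sacral sums, so the count and the median are no support. *Sst*, the precursor of somatostatin, was at 133 CPM in lumbar/sacral visceral neurons against 3.66 CPM in the others (difference 4.00, SE 0.23; adjusted p = 5.07e-05). *Penk*, the precursor of enkephalins, was at 153 against 7.52 CPM (3.72, SE 0.34; 5.30e-04), and *Adcyap1*, which encodes PACAP, was at 10.4 against 28.4 CPM (-1.10, SE 0.23; 0.0281). V8 made up 30.9% of lumbar/sacral visceral nuclei and almost none of the others. The paper describes a visceral cluster found only in lumbar/sacral cord that expresses both *Sst* and *Penk*. The part of cluster make-up in these 3 differences was not tested. Between classes, *Calcb*, a CGRP gene, was at 19.5 CPM in skeletal neurons against 2.89 (1.63, SE 0.09; 5.24e-13), and *Pnoc*, the nociceptin precursor, at 30.7 against 8.12 CPM (1.40, SE 0.13; 7.02e-09). *Adcyap1* was higher in visceral neurons, at 22.4 against 1.60 CPM (1.95, SE 0.13; 4.69e-11), as was its receptor gene *Adcyap1r1*. *Calcb* was 1.86 (SE 0.26) lower in S1 than in either S2 or S3 (3.47e-06 and 2.95e-06). In all, 2 ligand genes were higher and 2 lower in skeletal neurons, and 1 higher and 2 lower in each other class, where 66.1%, 62.8% and 50.5% of all genes were called in skeletal, visceral and interneuron sums.

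Genes of the signalling arms below the receptors were counted from fixed lists. Of 19 tested genes of the stimulatory arm (the G protein alpha subunits, adenylyl cyclases and cyclic AMP effectors), 6 were higher and 10 lower in skeletal neurons (median -0.20, against -0.01 over all genes), 13 higher and 5 lower in visceral neurons (0.23 against 0.05), and 7 higher and 7 lower in interneurons (-0.04 against -0.04). These counts stand beside 66.1%, 62.8% and 50.5% of all genes called in the same contrasts, as do those of the lists below. *Gnas*, the stimulatory alpha subunit gene, was at 306 CPM in skeletal neurons against 1184 in the others (-1.95, SE 0.07; adjusted p = 1.53e-15). *Adcy2*, an adenylyl cyclase, was at 1030 CPM in visceral neurons against 171 (2.80, SE 0.10; 1.96e-15). Of 12 tested genes of the inhibitory arm, 2 were higher and 9 lower in skeletal neurons (median -0.33), 9 higher and 2 lower in visceral neurons (0.22), and 6 higher and 3 lower in interneurons (0.05).

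GIRK channel genes, whose products open downstream of opioid and somatostatin receptors, differed between the classes. *Kcnj6* was at 160 CPM in interneurons against 32.1 (2.26, SE 0.09; adjusted p = 1.01e-14), and *Kcnj3* at 308 against 149 CPM (1.14, SE 0.12; 3.27e-08). Among skeletal types *Kcnj6* was at 82.7 CPM in S3, 19.7 in S2 and 4.34 in S1, and was 3.24 (SE 0.23) lower in S1 than in S3 (1.36e-11). S3 was thus the skeletal type with the highest mean of both *Oprm1* and *Kcnj6*. *Kcnj3* was at 148 CPM in lumbar/sacral visceral neurons against 76.5 (0.92; 0.045), the 1 inhibitory-arm gene called there. The part of cluster make-up in this difference was not tested. Of 12 tested desensitization genes, 4 were higher and 5 lower in skeletal neurons, 3 and 6 in visceral neurons and 6 and 3 in interneurons (medians -0.10, -0.15 and 0.11), beside the same 66.1%, 62.8% and 50.5% of all genes called. *Rgs9*, which speeds the shut-off of G proteins, was at 8.76 CPM in skeletal neurons against 88.8 (-2.83). Of 4 tested related receptors and accessory genes, 1 was higher and 2 lower in skeletal, 1 and 0 in visceral and 2 and 1 in interneuron sums.

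Some receptors also followed the pool of mice. *Adcyap1r1* was lowest in replicate 2 in 9 of 9 combinations of class and region (mean 22.7 CPM against 36.6 and 33.0 in replicates 1 and 3), and *Sstr1* was highest in replicate 2 in 9 of 9 (6.26 against 1.69 and 3.05 CPM). *Sstr2* was lowest in replicate 1 in 9 of 9 (2.92 against 6.42 and 6.59 CPM). These are values of 3 pools that differ in sex, and they were not tested.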

How the data were processed

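The authors isolated nuclei from frozen cord, aligned the reads to GRCm38 (mm10) with Cell Ranger 3.1.0 counting introns as well as exons, removed outlying nuclei and corrected the counts for depth with SCTransform in Seurat. The deposited values are these corrected counts, treated here as a score and not as raw counts, so no count model was fitted. The authors' classes and clusters were used. Doublets were not called here.

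The nuclei that shared a library and a class or cluster were added up (sums of at least 10 nuclei) and scaled to CPM, and the sums were filtered at 10 CPM in at least 3 of them and tested as log2(CPM + 5) with limma 3.58.1 in R 4.3.3 (trend, two-sided, Benjamini-Hochberg adjusted p under 0.05). Class and type fits had library as a term, and the regional fits had none. Neighbouring clusters were said to differ beyond their spread when the mean paired difference over shared libraries exceeded 1 SD. Shares have 95% Wilson intervals, and a count of 0 is given the limit of 3 counts, both for counting error only. Other steps used Python 3.11.15, numpy 2.4.6 and scipy 1.17.1. Thinning to 4600 counts a nucleus left out 1384 of 16042 nuclei, 44.1% of those of lumbar/sacral replicate 1.

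The regions of a replicate came from the same pool of mice, so by design the numbers pair the samples. Correlations of same-numbered deviations lay between -0.22 and 0.92. The negative ones, -0.0137 to -0.22, were those of the library labelled cervical replicate 3, in every class. That library correlated at 0.318 to 0.458 with the libraries of replicate 1 from the other regions. The replicate block took the numbers as labelled. In the class and type fits, with library as a term, p-values measure how differences within a library vary over the libraries. The main regional fits take each library as independent, although the regions of a replicate share a pool. All libraries came from only 3 pools, and these p-values do not measure the spread between pools alone. The receptors, the gene lists and the rules were chosen with earlier results of these data known. All 10 receptors are described, and for each one tested the 3 genes with the highest Pearson correlation over the 21 clusters are named, except 1 gene that is not reported here. From each list at most 3 called genes a comparison were named, those of the largest absolute change. The fits were tested on simulated data. Alternatives were another scaling (median of ratios), pseudocounts of 1 and 20, no filter and a stricter filter, at least 20 nuclei in a sum, thinned nuclei, each replicate left out and the replicate block. Leaving out the libraries with *Hox* genes against their labels, and a filter of 2 sums with a replicate left out, were added after seeing the data.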

Additional observations from a re-analysis of the deposited data

Results flagged for a closer look

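*Sstr1* in visceral neurons had 1 library far from the others: the library labelled thoracic replicate 2 was at 5.54 CPM and the next highest at 2.43 CPM, a gap of 0.640 of the range of the 9 libraries. It was the only such value in 31 groups tested, where chance gives about 1 in 20. *Sstr1* was highest in replicate 2 in every class and region.

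The lumbar/sacral difference of *Oprd1* was 1.52 larger in visceral than in skeletal neurons (limma, adjusted p = 3.37e-06) and 1.70 larger in visceral neurons than in interneurons (7.37e-07). All 3 lumbar/sacral visceral libraries (12.4 to 15.3 CPM) were above the other 6 (at most 3.03 CPM). *Oprd1* passed the filter for the regional fit only through these 3 libraries. V8, nearly all of it lumbar/sacral, had 10.2 ± 8.73 CPM (n = 3), and without it the lumbar/sacral values were 8.80 to 18.3 CPM. V1 and V6, where *Oprd1* was at 1.54 and 0 CPM, were scarcer in lumbar/sacral cord, and the part of cluster make-up was not tested.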

How the results depend on the processing

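Of the values of single called receptors under the alternatives, 360 kept their direction and call, 42 kept their direction and lost the call, and 0 reversed. The means of the highest clusters moved by less than 1 SD throughout. The count of receptors called between classes was 18 over the 3 contrasts, 4 with at least 10 corrected counts in every sum (fewer receptors tested), 11 to 17 with 1 replicate left out (11 without replicate 2) and 13 without the 2 libraries with *Hox* genes against their labels. Between skeletal types it was 9, then 0 with the stricter filter, 6 to 9 with 1 replicate left out and 8 with no replicate block (replicate and region as terms in place of the library term, which gave 18 between classes). For lumbar/sacral cord within classes it was 1, with 1 under the replicate block, 0 with the stricter filter and 0 to 0 with 1 replicate left out, also at a filter of 2 sums. Within clusters it was 3, then 1 with a pseudocount of 1, 5 with no filter, 0 with the stricter filter, 1 on thinned nuclei, 4 with the replicate block, 2 without the *Hox* libraries and 0 to 1 with 1 replicate left out (1 to 2 at a filter of 2 sums). The replicate block added *Vipr2* in I6 and lost no call. Between thoracic and cervical it was 0 throughout. Over all genes, 434 were called for lumbar/sacral cord within classes, 785 with the replicate block, and 47, 249 and 0 without replicates 1, 2 and 3. Within clusters 1933 pairs were called, 877 with the stricter filter, 3590 without replicate 2 and 225 without replicate 3. For the types 8742 calls became 4830 with the stricter filter, and 5327 and 5534 without replicates 1 and 3. *Calcr* and *Vipr1* passed the filter in no class or skeletal type, and depth was least in lumbar/sacral replicate 1. Apart from construction (fewer genes or samples), the causes of these changes were not tested.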
